A study of Homo sapiens with 4 samples.

Results

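The genes described are 8 transcription factors of foregut and epithelial cells, FOXA1, FOXA2, FOXA3, GATA6, KLF5, ELF3, EHF and GRHL2, taken as partners of TTF-1 in lung epithelium and read from every probe set that the platform's annotation pairs with 1 of these symbols alone. They are 8 of 19775 genes, and their 20 probe sets are among 54675. RNA was measured on 4 Affymetrix arrays, 1 for each combination of a human small cell lung cancer line and an siRNA. The groups were Lu139 cells given siTTF-1 (siRNA against TTF-1, the homeodomain factor encoded by NKX2-1), Lu139 cells given siNTC (control siRNA), NCI-H209 cells given siTTF-1 and NCI-H209 cells given siNTC. All 4 were electroporated, which the controls share. With 1 array per group, differences inside a line are unreplicated, and the only repetition of the siRNA comparison is over the 2 established lines. In these bulk samples fewer cells of a type and less RNA per cell cannot be told apart.

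FOXA1, FOXA2 and FOXA3 are forkhead proteins that bind closed chromatin and open it for other factors, and in the mouse FOXA1 and FOXA2 are needed for lung branching and act beside TTF-1 at surfactant and secretoglobin genes. GATA6, a zinc finger protein of foregut endoderm, also works with TTF-1 at such genes in the mouse. KLF5 (a Krüppel-like factor), ELF3 and EHF (epithelium-specific ETS proteins) and GRHL2 (a Grainyhead protein that holds up E-cadherin and claudin expression) set the identity of simple and glandular epithelia.

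Promoter sequence is shown for members whose start region holds the core letters of the TTF-1 site, since TTF-1 is what the siRNA lowers. The RefSeq table of GRCh38.p14 matched 6 of the 8 genes, with 2 starts each for KLF5 and EHF; FOXA2 and GRHL2 had no entry. In the 250 bases before each start, both strands were searched for CAAGTG (TTF-1) and for TGTTTAC or TGTTTGC (forkhead). These words do not overlap each other. The TTF-1 letters were found before the start of FOXA1, 1 of the KLF5 starts, ELF3 and 1 of the EHF starts, and they occur in 9.5% of 35114 such windows. Forkhead letters were found in the FOXA1 window and before the other EHF start, against 6.09% of all windows. A match is a description of these letters and not a bound site. Capitals mark the matched letters, 5′ to 3′ on the gene's strand.
FOXA1 (chr14:37595250-37595499, minus strand, GRCh38.p14): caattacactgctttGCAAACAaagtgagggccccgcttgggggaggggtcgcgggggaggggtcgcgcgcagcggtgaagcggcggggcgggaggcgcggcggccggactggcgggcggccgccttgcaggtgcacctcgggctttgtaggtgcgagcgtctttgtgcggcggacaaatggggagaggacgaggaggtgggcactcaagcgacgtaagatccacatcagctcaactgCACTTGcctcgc
KLF5 (chr13:73058755-73059004, plus strand, GRCh38.p14): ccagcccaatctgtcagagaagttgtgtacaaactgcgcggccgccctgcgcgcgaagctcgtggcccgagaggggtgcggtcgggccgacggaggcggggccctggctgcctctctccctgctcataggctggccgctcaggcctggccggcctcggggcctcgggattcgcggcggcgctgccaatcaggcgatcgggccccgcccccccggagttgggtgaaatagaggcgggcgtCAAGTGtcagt
ELF3 (chr1:202010337-202010586, plus strand, GRCh38.p14): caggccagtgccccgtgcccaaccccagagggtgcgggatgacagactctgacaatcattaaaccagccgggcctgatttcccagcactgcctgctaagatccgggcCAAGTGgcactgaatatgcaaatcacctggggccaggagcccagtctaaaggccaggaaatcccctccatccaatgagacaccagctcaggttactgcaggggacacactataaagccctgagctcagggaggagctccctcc
EHF (chr11:34624007-34624256, plus strand, GRCh38.p14): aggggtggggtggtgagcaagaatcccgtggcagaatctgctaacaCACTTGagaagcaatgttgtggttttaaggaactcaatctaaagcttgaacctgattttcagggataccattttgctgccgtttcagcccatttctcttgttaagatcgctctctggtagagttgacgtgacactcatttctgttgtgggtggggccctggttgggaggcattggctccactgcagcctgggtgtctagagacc
In FOXA1 the forkhead letters began 235 bases before the start and the TTF-1 letters 12 bases before it. The TTF-1 letters began 11 bases before the start in KLF5, 143 in ELF3 and 204 in EHF. The windows of FOXA3 and GATA6 and the other KLF5 window held none of these letters.

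The lines differed in which of these factors they carried. Lu139 had FOXA1 and GATA6 at higher levels than NCI-H209, and FOXA2, FOXA3, KLF5, ELF3, EHF and GRHL2 at lower levels. A probe set is called above the expression limit in a line when the mean of its 2 arrays there exceeds an intensity of 37.0, the 40th percentile over all probe sets. By that limit, 10 of the 20 probe sets, of 5 genes, were above it in Lu139 and 18, of 7 genes, in NCI-H209. Of all 54613 probe sets, 31324 were above it in Lu139 and 33209 in NCI-H209, so the Lu139 count lies near the overall share. FOXA3, EHF and GRHL2 were under the limit on all their probe sets in Lu139, and GATA6 was under it on both in NCI-H209. Intensities of different probe sets are not comparable with each other, so each is read across arrays.

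EHF had the largest lower bound on the line difference among the members. Its brightest probe set, 225645_at, had 6.83 in Lu139 siTTF-1 and 6.62 in Lu139 siNTC, against 2823 in NCI-H209 siTTF-1 and 3085 in NCI-H209 siNTC. With Lu139 set at the expression limit, NCI-H209 was at least 79.8-fold higher (a bound that leaves out how far below the limit the dim line lies). Each log2 value is of the intensity plus 18.7, the 25th percentile of all values, which understates differences of dim probe sets. The other 5 EHF probe sets had 4.41 to 27.2 over the Lu139 arrays and 39.1 to 275 over the NCI-H209 arrays, so all 6 showed the same order of the lines without overlap. The dimmest in NCI-H209, 232360_at, had 51.2 with siTTF-1 and 39.1 with siNTC there, just above the limit.

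GRHL2 is read by 219388_at alone. It had 11.2 on both Lu139 arrays, equal to the last deposited digit, against 942 in NCI-H209 siTTF-1 and 934 in NCI-H209 siNTC. NCI-H209 was at least 25.4-fold higher.

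ELF3 had low but measurable levels in Lu139 on 2 of its 3 probe sets. On 201510_at it had 77.4 and 65.5 in Lu139 with siTTF-1 and siNTC, against 1200.2 and 936 in NCI-H209 with siTTF-1 and siNTC, a 14.9-fold ratio of NCI-H209 over Lu139. On 210827_s_at the ratio was 16.2-fold. On 229842_at Lu139 was under the limit (20.3 with siTTF-1 and 21.1 with siNTC), against 743 and 654 in NCI-H209, at least 18.8-fold higher in NCI-H209.

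KLF5 was above the limit in both lines on both probe sets. The brighter, 209212_s_at, had 127 and 143 in Lu139 with siTTF-1 and siNTC, against 834 and 629 in NCI-H209, 5.37-fold higher in NCI-H209. The ratio on 209211_at was 5.61-fold, so the probe sets gave nearly the same size.

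Among the forkhead genes, FOXA1 and FOXA2 ran in opposite directions between the lines. FOXA1 on 204667_at had 736 and 718 in Lu139 with siTTF-1 and siNTC, against 278 and 384 in NCI-H209. Lu139 was 2.23-fold higher on this probe set and 4.23-fold higher on 237086_at, where it had 226 and 255 against 56.8 on both NCI-H209 arrays. FOXA2 on 40284_at had 278 and 239 in Lu139 with siTTF-1 and siNTC, against 934 and 1178 in NCI-H209, 4.07-fold higher in NCI-H209. On 210103_s_at the ratio was 3.43-fold, and the dim 214312_at (34.0 and 32.6 in Lu139, 52.4 and 50.3 in NCI-H209) gave the same order. FOXA3 on its 1 probe set had 14.8 and 12.8 in Lu139, under the limit, against 79.7 and 84.5 in NCI-H209, at least 2.22-fold higher in NCI-H209.

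GATA6 was the member seen above the limit in Lu139 but not in NCI-H209. On 210002_at it had 128 and 162 in Lu139 with siTTF-1 and siNTC, against 8.98 and 9.84 in NCI-H209, at least 3.90-fold higher in Lu139. On 229282_at the lines were close, at 42.0 and 34.8 in Lu139 and 29.1 and 30.0 in NCI-H209, so 1 Lu139 array lay under the limit.

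**Figure D1:**
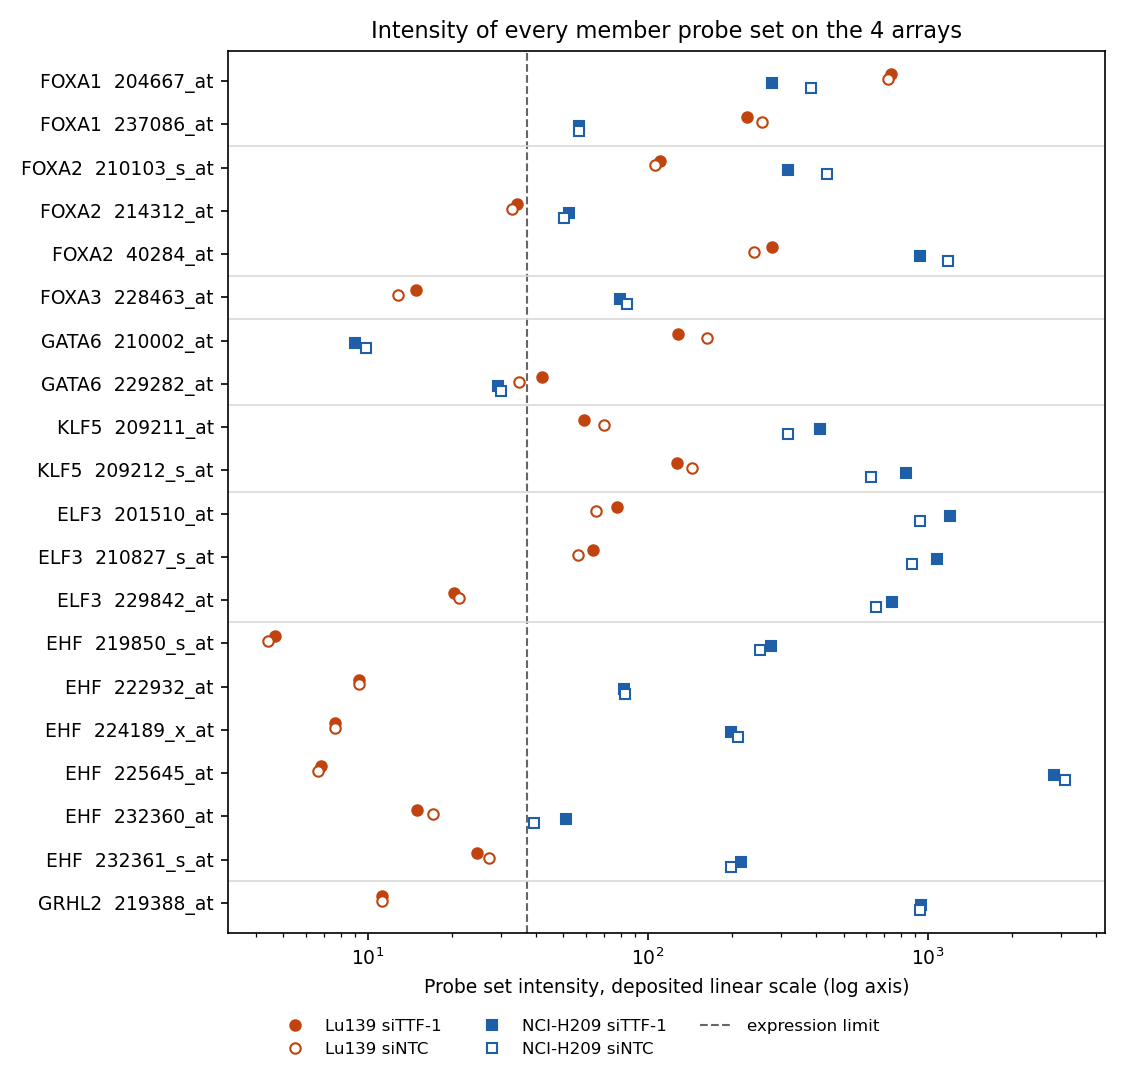
Intensity of each of the 20 member probe sets on the 4 arrays (log axis), with Lu139 as circles, NCI-H209 as squares, siTTF-1 filled and siNTC open; the dashed line is the expression limit of 37.0. The arrays of a line lie close together, Lu139 is to the right for FOXA1 and GATA6, and NCI-H209 is to the right for the other 6 genes.

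The line difference was tested with limma on all 4 arrays, with terms for line and siRNA, and Benjamini-Hochberg adjustment over all probe sets. No label says that arrays came from separate cultures, so the p-values do not measure spread between repeated cultures of a group. With 1 array per group, the residual is the difference between the lines in the siRNA effect. Array-to-array spread, possibly technical, is part of it and cannot be separated from a response of 1 line alone. Without the expression limit, which let all 20 member probe sets in, limma called 16 lower and 3 higher in Lu139 at an adjusted p under 0.05. Over all 54613 probe sets 43.1% were called lower and 16.8% higher, so a call alone says little about a member. The second GATA6 probe set missed the threshold (log2 difference 0.24, limma 95% interval 0.01 to 0.47, adjusted p = 0.0649). No Lu139 array overlapped an NCI-H209 array on any of the 20 probe sets, with Lu139 lower on 16 and higher on 4; this held for 55.3% and 24.4% of all probe sets.

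The sizes stand beside those of all features. The median log2 difference over the 20 probe sets was -2.07, against -0.19 over 19775 genes each read by the brightest probe set. On the log2 scale used, 14 of the 20 were 2-fold or more lower and 3 were 2-fold or more higher in Lu139, where 11.8% and 3.43% of all probe sets were. The sets are unlike: every member probe set passed the limit in at least 1 line, and many of all probe sets did not. A gene with several probe sets also counts once for each. With the limit, 17 of the 20 entered the fit, 9 of them through the level of 1 line alone. There limma called 14 lower and 3 higher in Lu139, against 48.8% and 19.2% of 32746 probe sets. For the 8 probe sets above the limit in both lines, the smallest difference was that of FOXA1 on 204667_at (log2 difference 1.11, limma 95% interval 0.78 to 1.44, adjusted p = 3.23e-04). FOXA2 on 40284_at had -1.95 (interval -2.30 to -1.61, limma adjusted p = 2.59e-05), KLF5 on 209212_s_at -2.27 (-2.63 to -1.92, limma adjusted p = 1.51e-05) and ELF3 on 201510_at -3.58 (-3.85 to -3.32, limma adjusted p = 9.45e-07).

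These differences rest on how the 2 lines were scaled, which is not given in the sources used here. Exactly equal values were found within each line but on 0 probe sets between arrays of different lines, and whether the lines were processed together was not tested. As deposited, the median log2 difference of the 32746 probe sets in the fit was -0.25, and quantile normalization over the 4 arrays moved it to 0.05. After that scaling 16 of the 20 member probe sets were called lower and 4 higher in Lu139 (limma, no limit), while the split over 19775 genes became 29.2% lower and 31.1% higher, against 46.4% and 16.6% as deposited.

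The siRNA effect was measured against that background. NKX2-1, the targeted gene, checks the labels. On 211024_s_at it had 461 in Lu139 siTTF-1 against 779.9 in Lu139 siNTC, and 243 in NCI-H209 siTTF-1 against 596 in NCI-H209 siNTC. On 210673_x_at it had 221 against 400.4 in Lu139 and 127 against 196 in NCI-H209. Both probe sets were lower with siTTF-1 in both lines, with limma adjusted p = 0.116 and 0.122 over all probe sets.

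None of the 8 factors passed a threshold after siTTF-1. Of the member probe sets above the limit, 0 of 10 in Lu139 and 0 of 18 in NCI-H209 were 2-fold or more different, where 0.172% of 31324 probe sets in Lu139 and 0.801% of 33209 in NCI-H209 were. At 1.5-fold the counts were again 0 and 0, against 1.77% and 4.63% of all probe sets. Member log2 fold changes, siTTF-1 over siNTC, ran from -0.30 to 0.20 in Lu139 (median 0.04, 6 higher and 4 lower) and from -0.44 to 0.40 in NCI-H209 (median 0.03, 10 higher, 7 lower and 1 equal). The medians over all genes above the limit were 0.03 in Lu139 and 0.01 in NCI-H209.

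FOXA1 and FOXA2 had the lowest values in NCI-H209. FOXA1 on 204667_at had 72.4% of the siNTC level there after siTTF-1 (log2 fold change -0.44) and 103% in Lu139 (0.03). Its other probe set did not repeat this: on 237086_at the NCI-H209 arrays were equal to the last deposited digit, and Lu139 had 88.8%. FOXA2 had 72.4% of siNTC on 210103_s_at and 79.3% on 40284_at in NCI-H209, against 104% and 116% in Lu139. Across the lines FOXA1 on 204667_at averaged -0.20 (SD 0.34, n = 2 lines, limma adjusted p = 0.51) and FOXA2 on 40284_at -0.06 (SD 0.38, n = 2 lines, limma adjusted p = 0.859). FOXA3 had 94.4% of siNTC in NCI-H209 and was under the limit in Lu139.

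KLF5 had the highest values in NCI-H209, at 133% of siNTC on 209212_s_at and 131% on 209211_at, and 88.5% and 85.3% in Lu139. Both probe sets thus gave opposite directions in the lines, and the limma mean was 0.12 on 209212_s_at (95% interval -0.23 to 0.48, adjusted p = 0.72).

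ELF3 was the member with values above siNTC in both lines on more than 1 probe set. On 201510_at it had 118% of siNTC in Lu139 and 128% in NCI-H209 after siTTF-1, and on 210827_s_at 113% and 123%. The mean log2 fold change on 201510_at was 0.27 (SD 0.11, n = 2 lines, limma 95% interval 0.01 to 0.54), with an adjusted p of 0.321, the lowest of any member. It was the 1 member probe set with an unadjusted limma p under 0.05, where 15.2% of all probe sets had one. On 229842_at ELF3 had 114% of siNTC in NCI-H209, and Lu139 was under the limit.

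EHF and GRHL2 can be read in NCI-H209, the line in which they were above the limit. GRHL2 had 101% of siNTC there. EHF had 91.5% on 225645_at and 109% on 219850_s_at, and its 6 probe sets split into 3 lower and 3 higher. The highest EHF value was 131% on the dim 232360_at, and the other 5 lay between 91.5% and 109%. GATA6 on 210002_at had 78.8% of siNTC in Lu139 (log2 fold change -0.30), but 121% on 229282_at.

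**Figure D2:**
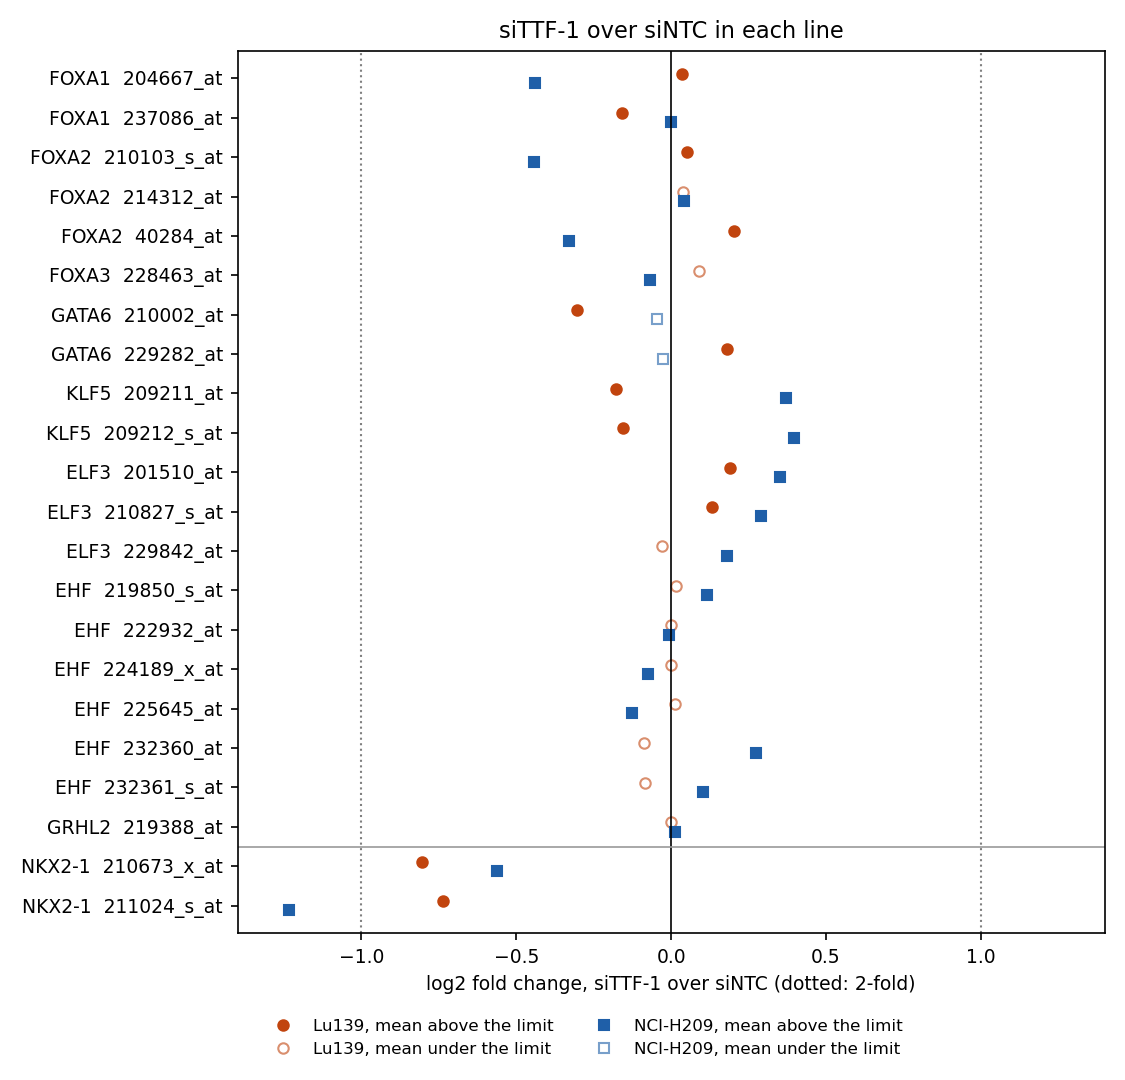
log2 fold change, siTTF-1 over siNTC, of each member probe set and of the 2 NKX2-1 probe sets in Lu139 (circles) and NCI-H209 (squares), 1 array per siRNA and line; open symbols had a mean under the expression limit, and dotted lines mark 2-fold. Every member value lies between -0.44 and 0.40, while NKX2-1 is at -0.56 or lower.

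Across the lines, limma called 0 of the 17 member probe sets in the fit lower and 0 higher after siTTF-1 (adjusted p 0.321 to 0.984), and 0% of all 32746 probe sets. The 95% intervals of the 17 mean log2 fold changes lay between -0.53 and 0.54. With 1 residual degree of freedom these intervals borrow most of their precision from other probe sets. Whether an effect differed between the lines could not be tested, because neither line has a second array for either siRNA.

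Of the genes around these factors, those of epithelial junctions, keratins and polarity, among them known targets of GRHL2, KLF5, ELF3 and EHF, followed the line difference. Of 28 such genes on the array, limma without a limit called 26 lower and 1 higher in Lu139, with a median log2 difference of -1.87, against 46.4% lower and 16.6% higher over all genes. After quantile normalization over the 4 arrays, 22 were called lower and 1 higher, with a median of -1.42. KRT7, a simple-epithelium keratin, had 30.3 on both Lu139 arrays, under the limit, against 5149 and 5024 in NCI-H209 with siTTF-1 and siNTC. RAB25, a GTPase of apical recycling, had 31.8 and 30.3 in Lu139 against 2029.9 and 1562 in NCI-H209. CLDN4, a tight junction claudin, had 68.4 and 63.4 in Lu139 against 1554 and 907 in NCI-H209. CDH1, which encodes E-cadherin and was added after its values were seen, was 11.1-fold higher in NCI-H209. In Lu139 CDH1 had 826 and 705 with siTTF-1 and siNTC, above the limit. Some genes of the list differed less. EPCAM was 1.41-fold and JUP 1.46-fold higher in NCI-H209, both also named after their values were seen. The 1 gene called higher in Lu139 was the claudin CLDN7, by 1.39-fold. After siTTF-1 0 of the 28 were 2-fold different in either line and 0 passed limma (2 at an unadjusted p under 0.05). CLDN4 had the largest mean log2 fold change of the list, from 0.09 in Lu139 and 0.76 in NCI-H209 (limma adjusted p = 0.308). PRSS8 had 0.01 and 0.45, and CLDN7 0.17 and 0.25.

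Repressors of the epithelial programme and mesenchymal genes ran mostly the other way. Of 9, limma without a limit called 6 higher and 1 lower in Lu139, with a median of 0.93. After quantile normalization over the 4 arrays it called 7 higher and 1 lower. Over all genes 16.6% were called higher and 46.4% lower as deposited, and 31.1% and 29.2% after that normalization. SNAI2, a zinc finger repressor, had 297 and 471 in Lu139 with siTTF-1 and siNTC, against 7.44 and 7.72 in NCI-H209, at least 10.1-fold higher in Lu139. TWIST1, a basic helix-loop-helix factor, had 126 and 132 in Lu139 against 13.1 and 12.9 in NCI-H209. FN1, which encodes fibronectin, was the exception, 6.16-fold higher in NCI-H209, where it was also 2-fold lower with siTTF-1 (314 against 737). Across the lines 0 of these genes passed limma after siTTF-1. SNAI2 had a log2 fold change of -0.63 in Lu139, and CDH2, which encodes N-cadherin, -0.22 in Lu139 and -0.42 in NCI-H209.

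**Figure D3:**
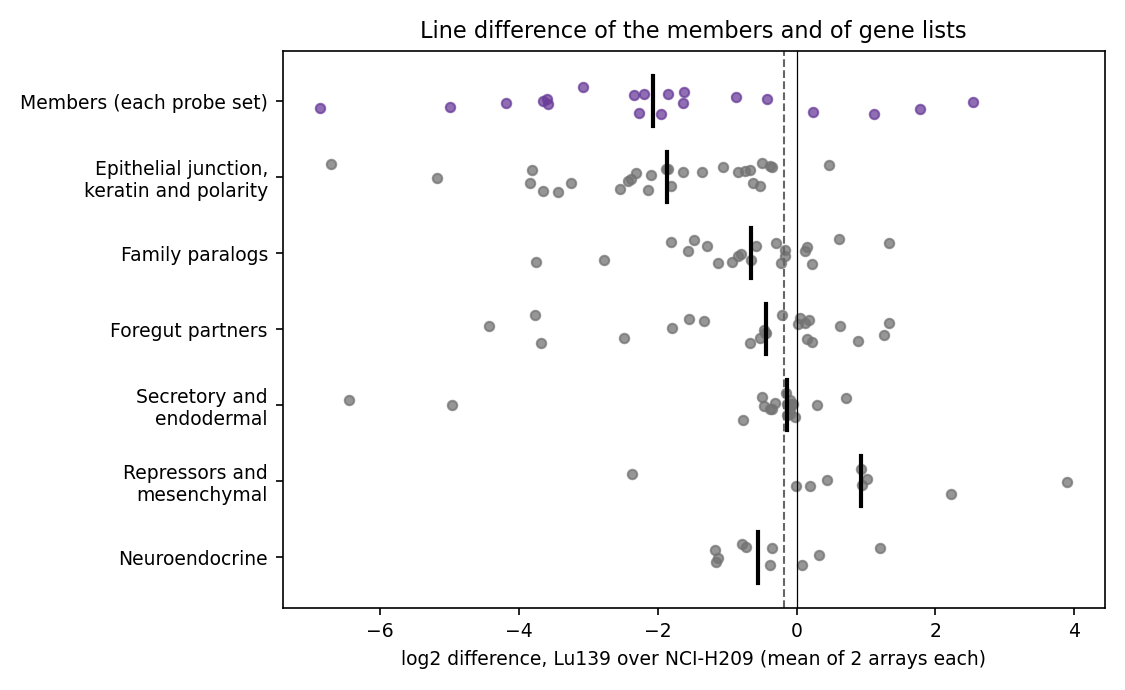
log2 difference, Lu139 over NCI-H209 (mean of 2 arrays each), of the 20 member probe sets and of the genes of 6 lists, each gene by its brightest probe set; points are probe sets, black bars list medians, and the dashed line the median of 19775 genes (-0.19). The members and the epithelial list have medians of -2.07 and -1.87, and the mesenchymal list 0.93.

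Other factors of the foregut and the members' paralogs had smaller median line differences than the members. Of 23 foregut factors on the array, 12 were called lower and 4 higher in Lu139 (limma, no limit), with a median of -0.43, against 46.4% lower and 16.6% higher over all genes. After quantile normalization over the 4 arrays 10 were called lower and 8 higher, with a median of -0.01. SOX2, a factor of proximal foregut, had 29.6 on both Lu139 arrays, under the limit, against 846 and 1233 in NCI-H209 with siTTF-1 and siNTC. IRX2 was 14.3-fold and NKX2-2 at least 11.3-fold higher in NCI-H209. Of 21 paralogs, 13 were called lower and 2 higher (median -0.66), or 11 and 6 after quantile normalization over the 4 arrays (median -0.37). ELF1, an ETS factor outside the epithelium-specific group of ELF3 and EHF, was 15.5-fold higher in NCI-H209. After siTTF-1, 0 genes of either list passed limma. Read by 211024_s_at, NKX2-1 itself was the 1 gene 2-fold lower in NCI-H209 and the 1 gene at least 1.5-fold lower in both lines. On 210673_x_at its log2 fold change in NCI-H209 was -0.56, short of 1.5-fold on the log2 scale used. IRX3 had log2 fold changes of -0.09 in Lu139 and -0.56 in NCI-H209, while CEBPB had 0.57 and 0.50. Of the Krüppel-like paralogs of KLF5, KLF4 had 0.80 and 0.49, KLF3 0.26 and 0.83 and KLF6 0.33 and 0.49. Their limma adjusted p-values were 0.128 for KLF4, 0.196 for KLF3 and 0.181 for KLF6. KLF4 was 7.21-fold and KLF3 3.64-fold higher in NCI-H209.

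Of 19 secretory and endodermal genes known as FOXA targets on the array, 7 were called lower and 2 higher in Lu139 (limma, no limit). Those are 36.8% and 10.5%, against 46.4% and 16.6% over all genes, and the list median was -0.14. Counting signs alone, 17 were lower and 2 higher in Lu139 as deposited, where 13444 and 6331 of all genes were. After quantile normalization over the 4 arrays 8 were lower and 11 higher in sign, 5 and 3 were called, and the median was 0.05, so the direction of this list flips with the scaling. The disulfide isomerase gene AGR3 had 5.63 and 6.05 in Lu139 against 2217 and 2034 in NCI-H209, at least 57.4-fold higher in NCI-H209. The trefoil factor gene TFF3 was 34.3-fold higher in NCI-H209, and the surfactant gene SFTPB 1.74-fold higher in Lu139. After siTTF-1, 0 passed limma, with 0 at an unadjusted p under 0.05. The mucin gene MUC1 had log2 fold changes of 0.08 in Lu139 and 0.53 in NCI-H209, MUC5AC 0.30 and 0.08, and APOA1 0.32 in Lu139.

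The lines were checked against neuroendocrine markers, of which all 10 on the array were above the limit in both lines. In the mean over the 4 arrays 14547 of 19775 genes passed it, so passing alone says little. Limma without a limit called 7 of the 10 lower and 2 higher in Lu139, with a median of -0.55. After quantile normalization over the 4 arrays it called 5 lower and 3 higher, with a median of -0.22. Over all genes 46.4% were called lower and 16.6% higher as deposited, and 29.2% and 31.1% after that normalization. Of fibroblast markers 4 of 7 were above the limit in each line, counted separately. Of immune markers 2 of 5 were above it in Lu139 and 3 of 5 in NCI-H209, and of endothelial markers 2 of 5 and 3 of 5. PTPRC, the pan-leukocyte gene, had 9.78 to 11.3 on the 4 arrays, under the limit. It was picked by name and other immune markers were above the limit, so it does not show that immune RNA was absent.

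The genes nearest to each member were taken by the distance between their 4 centred log2 values over 14547 genes, a measure that the line difference dominates. They were TMPRSS4 and HIPK3 for ELF3, OVOL2 and WDR7 for FOXA3, TBC1D15 and TFF3 for GRHL2, and EFR3A and CEACAM5 for EHF. For KLF5 they were OSGIN2 and CCPG1, for FOXA1 CSE1L and CYP4V2, for FOXA2 CEP192P1 and THNSL2, and for GATA6 C2orf74-DT and POU4F2. The closest pair was FOXA3 with OVOL2 (distance 0.02), and EHF had the furthest nearest gene (0.14).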

How the data were processed

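Per the labels' protocols, total RNA became biotinylated cRNA for Affymetrix arrays. The authors deposited a linear intensity for each probe set and array. The submitters' processing notes name Affymetrix Expression Console. The sources used here do not give its version, the summarisation, the normalization or a build. Exactly equal values on both arrays of a line occurred for 2206 probe sets in Lu139 and 2416 in NCI-H209, including 3 and 1 member probe sets, and for 0 between arrays of different lines. Ratios between lines therefore assume that the lines share a scale. Median intensities were 49.6 (siTTF-1) and 48.4 (siNTC) in Lu139, and 57.8 and 56.6 in NCI-H209. Precision is limited by having 4 arrays.

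Probe sets were named from the platform's annotation, with symbols updated by gene identifier through RefSeq (41037 of 41091 matched). The 62 array controls were left out. Expression was log2(value + 18.7). The siRNA and line effects were fitted per probe set with limma 3.58.1 (R 4.3.3), with terms for line and siRNA, a variance trend and two-sided tests, over 32746 probe sets whose mean passed the 40th percentile. The fit had 1 residual and 5.95 prior degrees of freedom. It was run on simulated data with spread drawn from its own fitted variance, which checks the code and not the assumptions. A ratio between lines is of geometric means of 2 arrays, and a line under the limit was set at 37.0. Figures used matplotlib 3.10.9 in Python 3.11.15.

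Members and lists were chosen with earlier results of these data known. Context genes named are those at 1.5-fold in both lines, and up to 3 per list with the largest mean siRNA change or line difference. CDH1, EPCAM, JUP and PTPRC were named outside this rule. Tried alternatives were the pseudocount, the limit, quantile normalization, no variance trend, 1 value per gene and dropped model terms.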

Additional observations from a re-analysis of the deposited data

Results flagged for a closer look

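The siRNA effect had opposite directions in the lines on 5 of the 8 member probe sets above the limit in both, where 32.6% of 29008 such probe sets did. None of these differences was tested, since each line has 1 array per siRNA. The values below are the log2 fold change in NCI-H209 minus that in Lu139. FOXA1 on 204667_at had -0.48 (-0.44 in NCI-H209 and 0.03 in Lu139). FOXA2 had -0.49 on 210103_s_at (-0.44 and 0.05) and -0.53 on 40284_at (-0.33 and 0.20). The Lu139 values on 204667_at and 210103_s_at lay near the median over all genes there, 0.03. On 237086_at FOXA1 did not change in NCI-H209, so it has no direction there. KLF5 had 0.55 on each probe set: 0.37 in NCI-H209 and -0.18 in Lu139 on 209211_at, and 0.40 and -0.15 on 209212_s_at. The pairs of probe sets of FOXA2 and KLF5 read the same gene and are not independent.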

How the results depend on the processing

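The members' line differences kept their direction and their side of the threshold on the brightest probe set of each gene under all alternatives in which that probe set or gene was tested. Genes with a probe set called lower and higher in Lu139 numbered 6 and 2, 5 and 2 with a pseudocount of 9.35 (FOXA3 not tested), and 5 and 1 with a limit at the 60th percentile, where FOXA3 and GATA6 were not tested and 6 rather than 10 member probe sets were above the limit in Lu139. Over all features, limma called 15972 lower and 6294 higher in Lu139, 10235 and 11738 after quantile normalization over the 4 arrays, 7527 and 2727 with the brightest probe set per gene, and 7232 and 2531 with the mean of probe sets; the per-gene settings tested fewer features. For the siRNA effect limma called 0 lower and 0 higher (4970 probe sets had an unadjusted p under 0.05), but 52 and 13 after quantile normalization over the 4 arrays, none a member; the cause was not tested. FOXA3 turned from 0.01 to -0.00012 with a pseudocount of 37.4, and EHF from -0.06 to 0.012 with the mean of its probe sets. Probe sets 2-fold lower after siTTF-1 in Lu139 numbered 52, or 82 with a pseudocount of 9.35 and 29 with 37.4; those 2-fold higher numbered 2, or 1 with 37.4 and 5 after quantile normalization over the 4 arrays. The siRNA test was paired by line through the line term, and the labels give no replicate numbers for any other pairing. Dim probe sets near 37.0 limit what can be said of FOXA3, of GATA6 on 229282_at and of FOXA2 on 214312_at.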
